A study of Mus musculus with 9 samples.

Results

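The genes described here are 8 regulators and effectors of bone formation and mineral deposition: Runx2, Sp7, Alpl, Ibsp, Mgp, Enpp1, Phex and Pth1r. They were chosen by name from 47729 genes of an expression table of cultured mouse synovial fibroblasts, and a gene counted as measured when its mean level over all libraries reached 3 on the log2 scale of the table. By that rule 7 of the 8 were measured, with Ibsp nearest above the bound at a mean of 3.91, and Sp7 was not, at a mean of 1.83.

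The cultures were synovial fibroblasts, which build and maintain the lining tissue of joints, grown from collagenase-digested paws of wild-type BALB/c mice and carried through 5 passages. The 3 naive cultures came from paws without any injection, the 3 non-primed cultures from right paws that received monosodium urate (MSU) crystals, the crystals of gout, on day 9 only, and the 3 primed cultures from left paws that received them on day 0 and on day 9, with RNA taken on day 18. Paw side therefore coincides with priming among the injected cultures, and the animal behind each culture is not named, so that p-values measure the spread between these cultures, some of which may share a mouse. The comparisons ask how cells from injected paws differ from those of untouched paws, and whether an earlier injection leaves a further difference.

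All values are regularised log (rlog) values, a log2 scale on which the depth of each library is accounted for and genes with few reads are drawn towards their own mean. Where a gene has few reads, the scale therefore makes its differences look smaller. The depth of the libraries is unknown. The cultures are bulk samples, so fewer cells of a type and less RNA per cell cannot be told apart. Naive cultures varied most, with a median SD over 15623 tested genes of 0.224 against 0.103 in non-primed and 0.138 in primed cultures. Synovial fibroblast markers were present in every library, with a mean over 10 genes between 13.33 and 14.04.

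Mineral forms where phosphate is available and its inhibitors are removed. RUNX2 is the transcription factor that commits mesenchymal cells to the osteoblast lineage, and SP7 (osterix) acts after it. Tissue-nonspecific alkaline phosphatase, the product of Alpl, breaks down pyrophosphate, a small inhibitor of crystal growth, while ENPP1 makes pyrophosphate from nucleotides outside the cell. Bone sialoprotein, the product of Ibsp, is a matrix protein of mineralised tissue. Matrix Gla protein (MGP) is an inhibitor of soft tissue calcification, PHEX is a cell surface peptidase whose loss causes phosphate wasting, and PTH1R is the receptor for parathyroid hormone and its related peptide. In joints these genes are followed because synovial and ligament cells can mineralise around inflamed tissue.

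The windows around the start sites of 4 members are shown because RUNX2 is the measured transcription factor among the 8 genes and Alpl, Ibsp and Enpp1 are effectors whose levels could be read against that of Runx2. The sequences are RefSeq windows on GRCm38.p6, each from 250 bases before to 50 bases after a start site, written 5′ to 3′ on the strand of the gene. Capitals mark the RUNX core motif TGTGGT or its reverse complement ACCACA, both strands having been searched.
Runx2 (chr17:44814578-44814877, minus strand): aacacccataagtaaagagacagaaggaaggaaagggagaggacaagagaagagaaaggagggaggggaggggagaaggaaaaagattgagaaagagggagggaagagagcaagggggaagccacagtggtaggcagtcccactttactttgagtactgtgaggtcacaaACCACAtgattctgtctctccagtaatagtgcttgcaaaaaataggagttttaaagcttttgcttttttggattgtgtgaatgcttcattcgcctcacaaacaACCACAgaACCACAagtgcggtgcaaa
Enpp1 (chr10:24712110-24712409, minus strand): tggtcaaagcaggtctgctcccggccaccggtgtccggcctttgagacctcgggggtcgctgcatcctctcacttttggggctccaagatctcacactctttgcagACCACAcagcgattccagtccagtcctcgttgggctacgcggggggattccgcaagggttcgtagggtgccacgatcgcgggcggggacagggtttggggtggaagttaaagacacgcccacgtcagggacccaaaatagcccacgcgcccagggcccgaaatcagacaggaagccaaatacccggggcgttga
Alpl (chr4:137796335-137796634, minus strand): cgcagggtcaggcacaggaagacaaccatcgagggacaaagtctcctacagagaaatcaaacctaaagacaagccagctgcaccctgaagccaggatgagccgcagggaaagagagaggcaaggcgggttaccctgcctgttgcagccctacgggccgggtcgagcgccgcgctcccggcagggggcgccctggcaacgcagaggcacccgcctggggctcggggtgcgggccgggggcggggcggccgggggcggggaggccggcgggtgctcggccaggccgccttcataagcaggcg
Ibsp (chr5:104299037-104299336, plus strand): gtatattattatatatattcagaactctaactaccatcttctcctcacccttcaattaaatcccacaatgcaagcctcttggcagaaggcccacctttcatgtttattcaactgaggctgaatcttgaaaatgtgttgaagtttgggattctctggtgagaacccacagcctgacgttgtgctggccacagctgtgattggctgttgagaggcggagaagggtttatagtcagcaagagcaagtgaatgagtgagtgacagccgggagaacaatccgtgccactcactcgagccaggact
The Runx2 window held 3 matches, all of the form ACCACA, 1 beginning 80 bases before the start site and the others at transcribed bases 24 and 32. The Enpp1 window held 1, beginning 144 bases before the start. The windows of Alpl and Ibsp held none of these letters, which says nothing about binding elsewhere. In all, 9 windows of 6 members were in the table and 2 of them held the motif, beside 16.8% of all 32851 windows. A match is a description of the sequence and not a binding site.

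No member passed the test in any of the 3 comparisons. In non-primed against naive cultures 0 of 7 passed (limma, Benjamini-Hochberg adjusted p below 0.05), where 0.141% of the tested genes did. In primed against naive cultures 0 of 7 passed beside 0.102% of tested genes, and in primed against non-primed cultures 0 of 7 beside 0%. At an unadjusted p below 0.05 the counts were 1 of 7, 1 of 7 and 0 of 7, where 15.4%, 16.9% and 1.26% of tested genes lay below it. The gene below it in both comparisons with naive cultures, which share the naive libraries, was Mgp. The median difference of the 7 members was 0.071 for non-primed against naive cultures, -0.13 for primed against naive and -0.00014 for primed against non-primed, beside 0.0088, -0.0014 and 0.00085 over all tested genes.

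**Figure D1:**
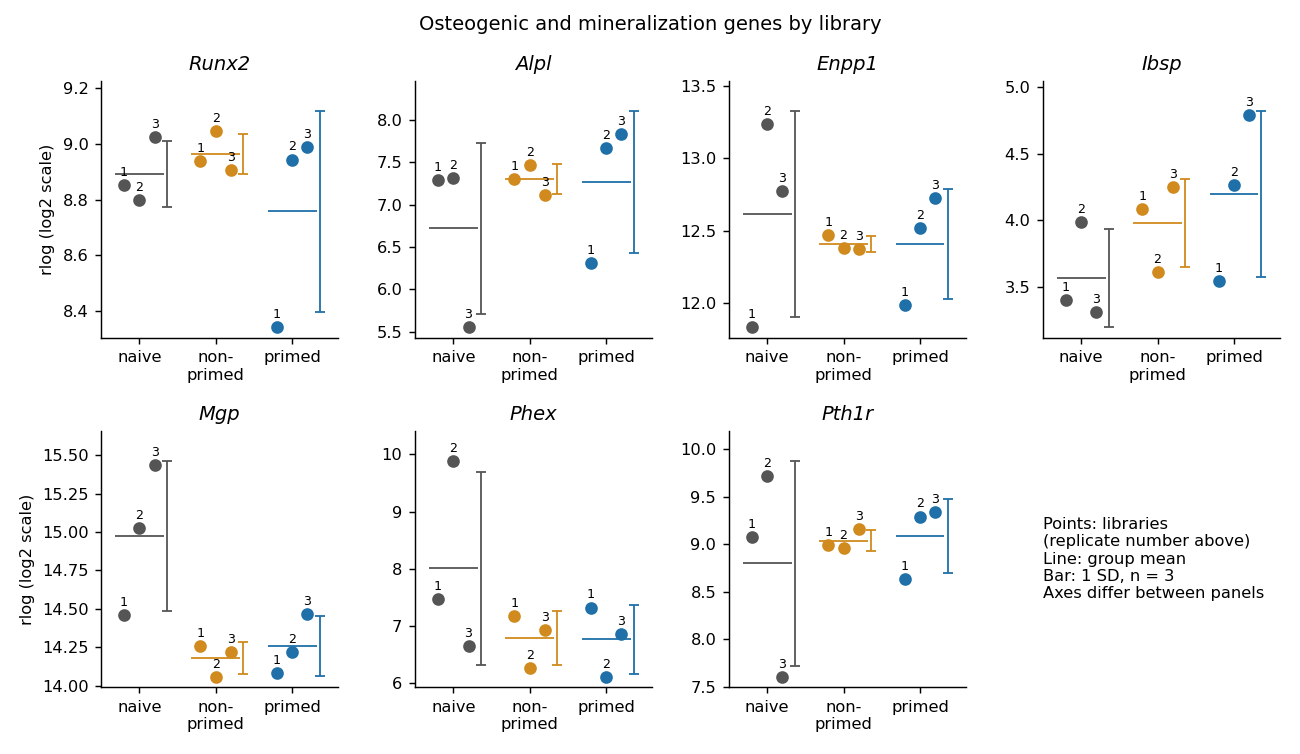
Level of each measured gene in each library, as rlog on the vertical axis, with the 3 naive, 3 non-primed and 3 primed cultures along the horizontal axis, the group mean as a line and 1 SD (n = 3) as a bar. Mgp lay at 14.46 or above in naive cultures and at 14.47 or below in injected ones, naive 2 stood high in Phex at 9.89, and naive 3 stood low in Alpl at 5.56 and in Pth1r at 7.60.

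Taken per kilobase of annotated exon, the levels of the measured genes spanned a wide range. On this scale, rlog minus the log2 of exon length in kilobases, the mean level was 14.22 for Mgp, 9.12 for Enpp1, 7.43 for Pth1r, 5.73 for Runx2, 5.09 for Alpl, 4.53 for Phex and 2.87 for Ibsp. The libraries of Mgp ranged from 13.81 to 15.19 and lay above every library of Enpp1, which ranged from 8.48 to 9.88. Pth1r, at 6.06 to 8.17, lay below Enpp1 and above Runx2, at 5.20 to 5.90, but overlapped Phex through a single high library of Phex. Runx2 and Alpl (3.55 to 5.82) did not differ beyond their ranges, nor did Alpl and Phex (3.46 to 7.24), nor Phex and Ibsp (2.26 to 3.74). The inhibitor of calcification and the enzyme that makes pyrophosphate were thus the most abundant of the measured transcripts per length. Ibsp had the lowest mean, but its range overlapped those of Alpl and Phex.

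Of the regulators, Runx2 (ENSMUSG00000039153, GRCm38 chromosome 17, 44495987 to 44814797) was expressed at similar levels in nearly all cultures. Its rlog was 8.85, 8.80 and 9.03 in naive 1, 2 and 3, 8.94, 9.04 and 8.91 in non-primed 1, 2 and 3, and 8.34, 8.94 and 8.99 in primed 1, 2 and 3. Primed 1 lay below all the others, and the groups overlapped. The difference was 0.071 (SE 0.17, adjusted p = 0.880, limma) between non-primed and naive cultures and -0.13 (SE 0.17, adjusted p = 0.723) between primed and naive cultures. The 95% interval of the first ran from -0.31 to 0.45. In naive cultures Runx2 was also the least variable of the 7 measured members, its SD of 0.12 lying at the 20.9th percentile of tested genes. The primed against naive value was 0.074 without primed 1.

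Sp7 (ENSMUSG00000060284, chromosome 15, 102356606 to 102367182), which follows Runx2 in osteoblast commitment, was listed at 1.93, 2.07 and 1.87 in the naive cultures, at 1.68, 1.77 and 1.79 in the non-primed and at 1.76, 1.59 and 2.01 in the primed. All 9 values lay below the bound of 3, where rlog values are drawn together, and no difference was tested. Other genes of bone cells and mineralised matrix were mixed, some low and some well measured. The osteocalcin gene Bglap lay between -0.40 and -0.08 and Mepe, an osteocyte matrix gene, between -1.04 and -0.88, while Sost, the osteocyte gene of sclerostin, was listed at 0 in every library. Bglap2, a close copy of Bglap with which it can share reads, had a mean of 2.99 and reached 3.56 in primed 3. Against these stood Spp1, the osteopontin gene, with a mean of 17.78, the matrix gene Omd with 9.51, Dmp1 with 6.82 and Ifitm5 with 4.51, beside Phex itself with 7.18.

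The enzymes of pyrophosphate turnover did not differ between groups by more than the spread of the cultures. Alpl (ENSMUSG00000028766, chromosome 4, 137741733 to 137796384) had an rlog of 7.30, 7.32 and 5.56 in naive 1 to 3, 7.31, 7.47 and 7.12 in non-primed 1 to 3, and 6.31, 7.67 and 7.84 in primed 1 to 3. Naive 3 and primed 1 were low and the other 7 libraries lay within 7.12 to 7.84. The difference was 0.58 (SE 0.53, adjusted p = 0.652) for non-primed and 0.55 (SE 0.53, adjusted p = 0.629) for primed against naive cultures. Without naive 3 these became -0.0083 and -0.036, so the direction rested on that library. Within naive cultures the SD of Alpl, 1.01, was at the 95.8th percentile of tested genes, and within primed cultures its SD of 0.84 was at the 99.0th.

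Enpp1 (ENSMUSG00000037370, chromosome 10, 24637914 to 24712159), the pyrophosphate-making enzyme, stood at 11.84, 13.24 and 12.77 in naive 1 to 3, at 12.47, 12.38 and 12.38 in non-primed 1 to 3, and at 11.98, 12.52 and 12.72 in primed 1 to 3. The naive cultures held both the lowest and the highest value, and the non-primed cultures were close together with an SD of 0.053. The difference from naive cultures was -0.21 (SE 0.32, adjusted p = 0.809) in non-primed and -0.21 (SE 0.32, adjusted p = 0.782) in primed cultures, with the same naive libraries in both. Without naive 2 the values were 0.11 and 0.10.

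Of the matrix genes, Ibsp (ENSMUSG00000029306, chromosome 5, 104299171 to 104311469) was the weakest measured member. It was at 3.40, 3.98 and 3.31 in naive 1 to 3, at 4.09, 3.61 and 4.25 in non-primed 1 to 3, and at 3.54, 4.26 and 4.79 in primed 1 to 3. Naive 2 lay among the injected libraries, and non-primed 2 and primed 1 lay below it. The difference was 0.42 (SE 0.33, adjusted p = 0.592) for non-primed and 0.63 (SE 0.33, adjusted p = 0.361) for primed against naive cultures, and leaving out any 1 library kept both above 0, at 0.28 to 0.63 and at 0.34 to 0.96. In primed against non-primed cultures it differed by 0.21 (SE 0.33, adjusted p = 0.9999). With a weight estimated for each library that value was 0.60 (SE 0.16, adjusted p = 0.0411), in a fit where 13.5% of all tested genes passed. It was -0.08 without primed 3. The weighted values against naive cultures were 0.56 (SE 0.32, adjusted p = 0.340) for non-primed and 1.16 (SE 0.33, adjusted p = 0.0729) for primed cultures.

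Mgp (ENSMUSG00000030218, chromosome 6, 136872435 to 136875823), the calcification inhibitor, showed the clearest separation among the members without passing the test. Its rlog was 14.46, 15.02 and 15.44 in naive 1 to 3, 14.26, 14.06 and 14.22 in non-primed 1 to 3, and 14.08, 14.22 and 14.47 in primed 1 to 3. All 3 non-primed libraries lay below all 3 naive ones, and primed 3 just overlapped naive 1. The difference was -0.80 (SE 0.23, 95% interval -1.32 to -0.28, adjusted p = 0.179) for non-primed and -0.72 (SE 0.23, 95% interval -1.24 to -0.20, adjusted p = 0.197) for primed against naive cultures. Without naive 3, the highest library, the values were -0.56 and -0.49, and without naive 1 they were -1.05 and -0.98, and with any 1 library left out the adjusted p ranged from 0.0563 to 0.473 and from 0.0691 to 0.569. With sample weights the differences were -0.44 (SE 0.17, adjusted p = 0.172) and -0.25 (SE 0.18, adjusted p = 0.388). Non-overlap was no rarity, since 1 of 7 members did not overlap between non-primed and naive cultures beside 21.9% of tested genes. Against naive cultures 0 of 7 members separated in primed ones beside 17.1%, and 0 of 7 between primed and non-primed ones beside 11.6%.

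Some markers of other cells also differed by value between naive and injected cultures, with overlapping ranges of the macrophage and adipocyte means. Library by library they did not follow Mgp. Naive 3, at 15.44 in Mgp, had an adipocyte mean of 7.04, and naive 2, at 15.02, had a macrophage mean of 9.57. Both means lay within the range of the injected libraries. The mean of 14 macrophage markers ranged from 7.17 to 9.57 in naive, 9.49 to 10.08 in non-primed and 9.27 to 10.50 in primed libraries, and 14 of 14 were higher in each injected group by value, 0 of them past the threshold. Cd68 and Trem2, with the smallest p among them in primed against naive cultures, differed from naive cultures by 1.68 and 1.84 in non-primed and by 1.90 and 2.02 in primed cultures. The mean of 6 of 8 adipocyte markers ranged from 7.04 to 9.28 in naive, 6.96 to 7.21 in non-primed and 7.05 to 7.98 in primed libraries, with Lep listed at 0 throughout. Against naive cultures 5 of the 6 were lower by value and 1 higher in non-primed cultures, and 4 lower and 2 higher in primed ones. Adipoq differed by -2.56 and -2.05, and Lpl by 0.027 and 0.21. The mean of 5 of 9 skeletal muscle markers ranged from 4.59 to 4.81 in naive, 5.34 to 6.21 in non-primed and 4.88 to 6.40 in primed libraries. Their part in the values of Mgp was not tested.

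**Figure D2:**
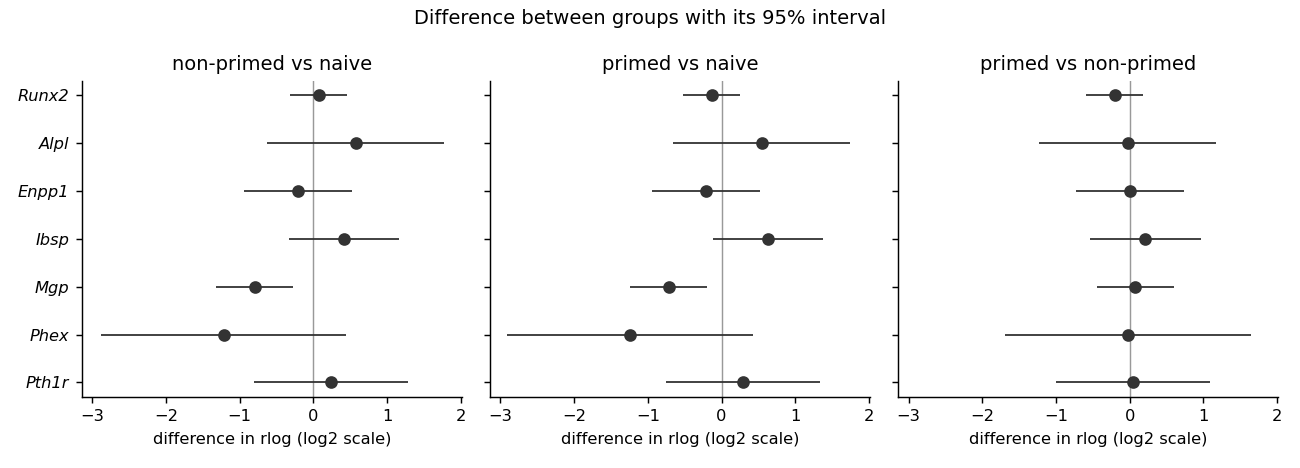
Difference between groups for each measured gene (points, in rlog units on a log2 scale along the horizontal axis) with its 95% interval from limma, for the 3 comparisons. The intervals of Mgp lie below 0 in both comparisons with naive cultures, with differences of -0.80 and -0.72 before adjustment over all tested genes, and every interval of primed against non-primed cultures spans 0.

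Phex (ENSMUSG00000057457, chromosome X, 157162075 to 157415312), the peptidase of phosphate balance, had the widest range of any member. It was at 7.47, 9.89 and 6.65 in naive 1 to 3, at 7.17, 6.27 and 6.92 in non-primed 1 to 3, and at 7.32, 6.11 and 6.85 in primed 1 to 3. Naive 2 stood above every other library by more than 2 log2 units, and the other 8 overlapped across groups. The difference was -1.22 (SE 0.73, adjusted p = 0.476) for non-primed and -1.24 (SE 0.73, adjusted p = 0.412) for primed against naive cultures, and -0.27 and -0.30 without naive 2. The SD of Phex in naive cultures, 1.69, lay at the 99.6th percentile of tested genes. Naive 2 also had the highest mean of 9 chondrocyte markers, 8.91 against 7.62 to 8.18 in the other 8 libraries, and the highest level of Dmp1, an osteocyte matrix gene, at 8.96. Both kinds of marker were split. The chondrocyte marker Col10a1 was lowest in naive 2 at 5.23, and so was the osteocyte marker Pdpn at 11.87. The means of adipocyte and synovial fibroblast markers were also highest in naive 2, at 9.28 and 14.04. What part these had in the level of Phex was not tested.

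Pth1r (ENSMUSG00000032492, chromosome 9, 110722085 to 110747145), the hormone receptor, was at 9.08, 9.72 and 7.60 in naive 1 to 3, at 9.00, 8.96 and 9.16 in non-primed 1 to 3, and at 8.64, 9.29 and 9.34 in primed 1 to 3. Naive 3 was the lowest and naive 2 the highest library, with all injected libraries between them. The difference was 0.24 (SE 0.46, adjusted p = 0.849) for non-primed and 0.29 (SE 0.46, adjusted p = 0.785) for primed against naive cultures. Without naive 3 the values were -0.36 and -0.31, the opposite direction. Naive 3, low in Alpl and Pth1r, was also the lowest library in Prg4, which encodes lubricin, at 8.34. It had the highest mean of 7 mural and smooth muscle markers, 9.02 against 7.88 to 8.49 elsewhere, but that list was split. Acta2, Myh11, Cnn1 and Cspg4 were highest in naive 3, while Des was lowest there at 3.73. Rgs5 was at 7.60 in naive 3 against 10.34 in naive 2, and Notch3 at 8.97 against 9.67 in naive 1. Their part in the levels of Alpl and Pth1r was not tested.

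The primed and non-primed cultures, which address what an earlier injection adds, differed on average by less than the SD of the primed cultures in all 7 measured genes. In Runx2 the difference was larger than the SD of the non-primed cultures, 0.072. An SD of libraries is not the error of a difference, for which the SE is given. The difference was -0.20 (SE 0.17) for Runx2, -0.028 (SE 0.53) for Alpl, 0.077 (SE 0.23) for Mgp, -0.00014 (SE 0.32) for Enpp1, -0.025 (SE 0.73) for Phex and 0.049 (SE 0.46) for Pth1r, with an adjusted p of 0.9999 for each (limma). The intervals leave room for sizeable changes, from -1.23 to 1.17 for Alpl and from -1.69 to 1.64 for Phex. For Mgp the interval was narrower, from -0.44 to 0.60, and for Runx2 it ran from -0.59 to 0.18. Primed 1 was the lowest of the 6 injected libraries in 5 of the 7 members, namely Runx2, Alpl, Ibsp, Enpp1 and Pth1r, and the highest in Phex. Primed 3 was the highest in 5, which were Alpl, Ibsp, Mgp, Enpp1 and Pth1r. Without primed 1 the difference was 0.0029 for Runx2, 0.45 for Alpl and 0.54 for Ibsp.

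Differences between cultures of the same number did not share a direction over the 3 numbers in any measured gene. Primed minus non-primed was 0.15 for number 1, -0.16 for number 2 and -0.066 for number 3 in Phex, while in Alpl it was -0.9999, 0.20 and 0.72. In Runx2 these differences were -0.59, -0.10 and 0.081. The numbers need not identify a mouse, as the design text states.

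**Figure D3:**
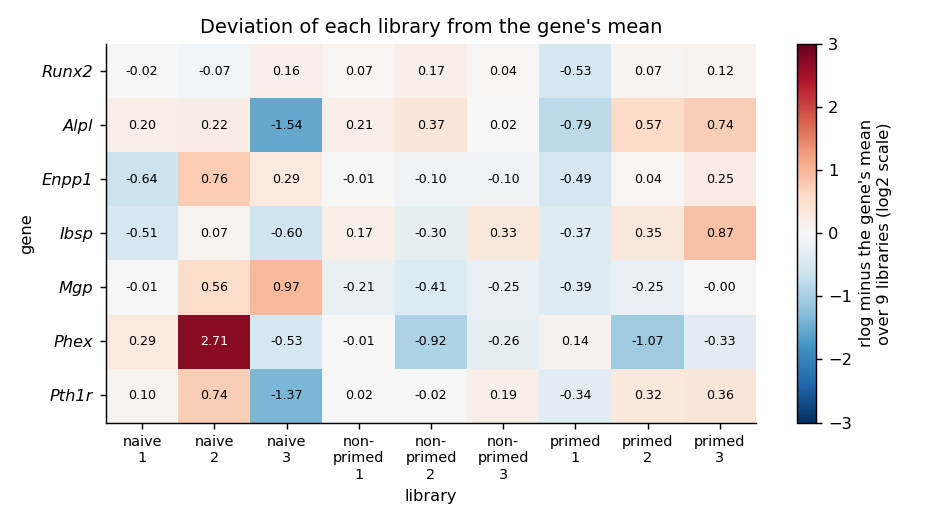
Each cell gives the rlog of a gene (rows) in a library (columns) minus the mean of that gene over the 9 libraries, with red above and blue below the mean on a log2 scale. Primed 1 was the lowest of the injected libraries for 5 of 7 genes, Phex peaked in naive 2, and naive 3 was low in Alpl and Pth1r while its Mgp was the highest.

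Within the 6 injected libraries several members ran parallel, and over all 9 fewer did. Pearson's r between Alpl and Enpp1 was 0.96 over the injected libraries and 0.06 over all 9, with a Spearman's rho of 0.30 over all 9. For Runx2 and Alpl the r was 0.91 over the injected and 0.30 over all libraries. Alpl and Pth1r correlated in both sets, at 0.88 over the injected libraries and 0.88 over all 9 (rho 0.68). The value over all 9 includes naive 3, the lowest library in both genes, at 5.56 in Alpl and 7.60 in Pth1r. Ibsp and Mgp went from 0.95 over injected libraries to -0.27 over all. Phex was negatively related to Alpl over the injected libraries, at -0.65. These are descriptions across libraries that share their groups and, among injected ones, the low values of primed 1.

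For likeness of pattern, each measured gene was compared with 13471 named genes, and those with the highest r over the 9 libraries were taken, at most 3 for each. For Pth1r they were Prg4 (r = 0.98), Ddc (0.98) and Map2k6 (0.98), and for Alpl they were Atp11a (0.98), Map10 (0.96) and Dpysl4 (0.96). For Phex they were Mmp3, a matrix protease gene, at 0.98, Tmem260 at 0.97 and Scara5 at 0.97, over libraries that include the high Phex of naive 2. For Mgp they were Scd1 at 0.97, Cacng7 at 0.97 and Fzd8 at 0.96, and for Enpp1 they were its relative Enpp3 at 0.97 and Slc44a1 at 0.95. For Ibsp they were Pecr at 0.97, Chsy1 at 0.93 and Tmem26 at 0.92, and for Runx2 Alg5 at 0.93, Ttc37 at 0.92 and Myc at 0.92. Over the 6 injected libraries alone the r of Prg4 with Pth1r was 0.85, that of Mmp3 with Phex 0.84 and that of Cacng7 with Mgp 0.69. With so many genes compared over 9 libraries, high values of r are common.

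Around the 8 genes, 6 lists of related genes held 72 symbols, of which 71 matched and 54 were tested. None of the 54 passed in any comparison, the smallest adjusted p being 0.0878 for non-primed and 0.0866 for primed against naive cultures and 0.9999 between injected groups (limma). At an unadjusted p below 0.05 there were 9, 10 and 2 of the 54 genes in the same order, where 15.4%, 16.9% and 1.26% of all tested genes lay below it. Groups did not overlap in 10 of 54 genes (18.5%) between non-primed and naive cultures, 8 lower and 2 higher, and in 9 (16.7%) between primed and naive cultures, 7 lower and 2 higher, beside 21.9% and 17.1% of all tested genes. Between the injected groups 4 of 54 did not overlap (7.41%), beside 11.6%.

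Of 14 tested BMP signalling genes 0 passed in either direction. Nog, which encodes noggin, a secreted antagonist of BMPs, was at 5.02, 5.27 and 4.47 in naive 1 to 3, at 3.63, 3.47 and 3.78 in non-primed 1 to 3, and at 3.97, 3.18 and 3.58 in primed 1 to 3. All injected libraries lay below all naive ones, and the differences were -1.29 (SE 0.25, adjusted p = 0.0878) and -1.34 (SE 0.25, adjusted p = 0.0999). Bmpr2, the type II BMP receptor gene, was likewise separate, at 11.98 to 12.18 in naive against 11.54 to 11.80 in injected libraries, with differences of -0.33 (SE 0.08, adjusted p = 0.133) and -0.46 (SE 0.08, adjusted p = 0.0866).

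Of 12 tested osteoblast transcription factors and partners 0 passed. Cbfb, the DNA-binding partner of RUNX proteins, differed by 0.40 (SE 0.09, adjusted p = 0.129) in non-primed and 0.19 (SE 0.09, adjusted p = 0.344) in primed cultures. Dlx3, Dlx6 and Lef1 were below the bound.

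Of 9 tested phosphate and pyrophosphate genes 0 passed. Ank, the gene of the pyrophosphate exporter, which was also listed under its other symbol Ankh, was at 12.28 to 12.65 in naive, 11.47 to 11.88 in non-primed and 11.44 to 12.09 in primed libraries, and its groups did not overlap with naive cultures. The differences were -0.73 (SE 0.18, adjusted p = 0.136) and -0.68 (SE 0.18, adjusted p = 0.151). Abcc6, a transporter whose loss causes ectopic calcification, differed by -0.35 (SE 0.24) and -0.20 (SE 0.24). Phospho1, a phosphatase of matrix vesicles, was not measured, with a mean of 1.49.

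Of 9 tested genes of mineralised matrix 0 passed. Dmp1 was at 7.35, 8.96 and 7.32 in naive 1 to 3, at 6.55, 5.67 and 6.22 in non-primed 1 to 3, and at 6.75, 5.94 and 6.67 in primed 1 to 3. Every injected library lay below every naive one, by -1.73 (SE 0.46, adjusted p = 0.157) and -1.42 (SE 0.46, adjusted p = 0.198) on average. Col5a1, a fibrillar collagen chain, differed by 0.67 (SE 0.26, adjusted p = 0.281) and 0.50 (SE 0.26, adjusted p = 0.371).

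Of 4 tested genes of vitamin K carboxylation, the reaction that activates MGP, and of further inhibitors 0 passed, and of 6 tested PTH and bone remodelling genes 0 passed. Ggcx, the carboxylase itself, differed by 0.11 (SE 0.09, adjusted p = 0.626) and 0.24 (SE 0.09, adjusted p = 0.248, groups apart in primed cultures), and Gas6, another carboxylated protein, by 0.20 (SE 0.29) and 0.50 (SE 0.29). Tnfrsf11b, which encodes the decoy receptor osteoprotegerin, differed by 0.71 (SE 0.38, adjusted p = 0.419) and 0.68 (SE 0.38, adjusted p = 0.386), and Vdr, the vitamin D receptor gene, by -0.91 (SE 0.52, adjusted p = 0.453) and -0.81 (SE 0.52, adjusted p = 0.457). Pthlh, a ligand of PTH1R, was below the bound in all libraries.

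**Figure D4:**
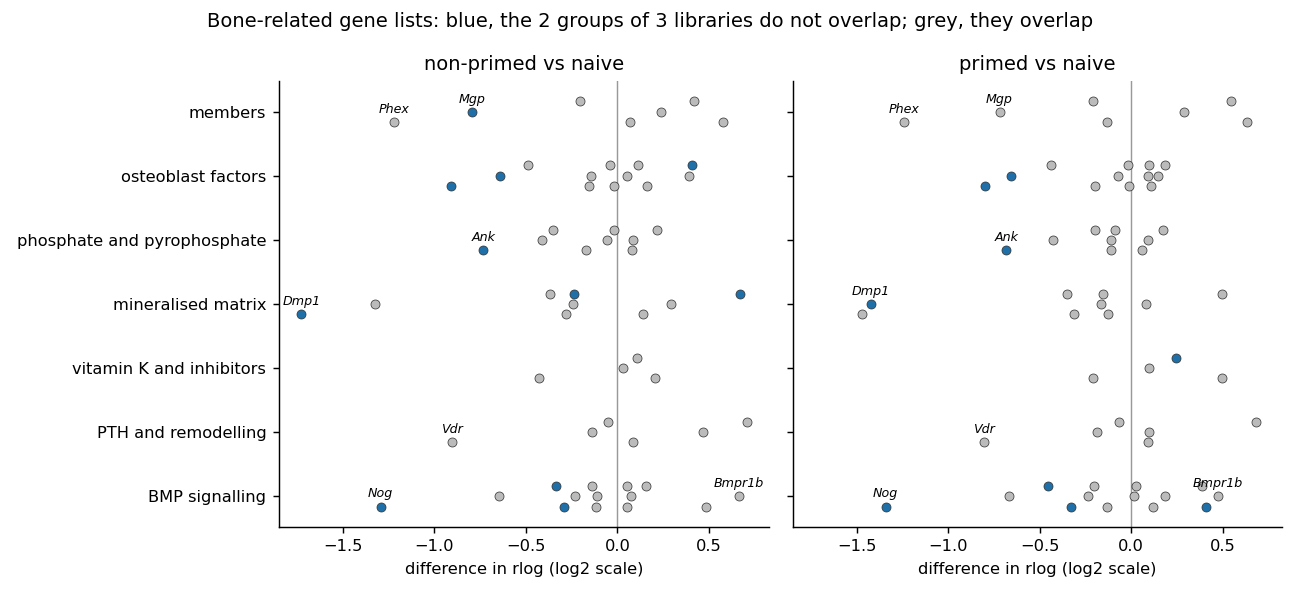
Difference from naive cultures (horizontal axis, rlog on a log2 scale) of each tested gene of the member list and 6 related lists (rows), for non-primed cultures on the left and primed cultures on the right, which share the naive libraries. Blue points are genes whose 3 injected and 3 naive libraries do not overlap, among them Nog at -1.29 and -1.34, Ank and Dmp1, and grey points overlap, as those of Phex do.

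Markers of the bone and cartilage cells that a paw digest could hold were partly present. Of 10 osteoclast markers 6 were tested, with a mean between 8.29 and 9.10, namely Acp5, Ctsk, Mmp9, Atp6v0d2, Itgb3 and Nfatc1. Of the others, Calcr and Dcstamp lay below 0 in every library, and Ocstamp and Oscar were below the bound. Of 13 chondrocyte markers 9 were tested, and Acan, which encodes aggrecan, was below the bound. Cnmd, the gene of chondromodulin, was at 9.99 to 11.86 in naive and 6.73 to 10.08 in injected libraries, with differences of -3.19 (SE 0.86, adjusted p = 0.164, groups apart) and -2.90 (SE 0.86, adjusted p = 0.177, groups overlapping). Col10a1, a collagen gene of hypertrophic chondrocytes, went the other way by value, with differences of 1.03 (SE 0.45, adjusted p = 0.327, groups apart) and 1.06 (SE 0.45, adjusted p = 0.288). Of the 9 tested chondrocyte markers 5 were higher by value in non-primed and 4 in primed than in naive cultures. Of 8 osteocyte markers, a list that holds Phex and Dmp1, 5 were tested, with a mean between 7.13 and 8.87. The highest of these was Pdpn with a mean of 12.3, which is also among the synovial fibroblast markers. Pdpn differed from naive cultures by 0.56 in non-primed and 0.47 in primed cultures. In each injected group 2 of the 5 were higher by value than in naive cultures and 3 lower, the latter being Phex, Dmp1 and Irx5. Of 6 endothelial markers 4 were tested, with a mean between 4.57 and 5.66. Their part in the values of the members was not tested.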

How the data were processed

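RNA sequencing of 9 libraries gave 1 deposited table of log2-scale rlog values for 47729 genes, made by the authors. The submitters' processing notes list cutadapt 2.5, STAR 2.5.4a, Subread 1.6.1, featureCounts, DESeq2 and GRCm38. The sources used here do not name the annotation, the strand option or the rlog options, so values of overlapping genes are uncertain.

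Groups came from sample titles. Identifiers with a symbol numbered 47224, and coordinates and exon lengths are those of GENCODE M21 (GRCm38). Genes that varied with a mean rlog of at least 3 were tested (15623) with limma 3.58.1 in R 4.3.3, with 1 mean per group over all 9 libraries, a variance trend, 6 residual degrees of freedom, two-sided tests and Benjamini-Hochberg adjustment at 0.05. An exact test of 3 libraries against 3 cannot go below p = 0.1. The code was tested on simulated data. Members and lists were chosen with earlier results of these data known. The text names the members, any gene of a wider list that passed, and the 2 genes with the smallest p of each such list. For likeness it names the 3 genes with the highest r for each member. Some genes that these rules select are not reported here. Other bone genes and markers, and Prg4 apart from its likeness to Pth1r, were named after their values were seen. The replicate numbers were checked by correlating deviations from group means across genes. Non-primed and primed libraries gave 0.418, 0.608 and 0.100 (0.1002 before rounding) for numbers 1, 2 and 3, the last just above the bound of 0.1. They were taken as possibly paired, while naive libraries gave -0.160 to 0.152 with those of the same number. Non-primed and primed libraries of different numbers gave -0.497 to 0.275. The highest of these, non-primed 3 with primed 1, exceeded the value of number 3, so the pairing of number 3 is uncertain. Alternatives were other filters, no trend, a robust prior, sample weights, centred libraries, 2 groups alone, a replicate block and each library left out.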

Additional observations from a re-analysis of the deposited data

How the results depend on the processing

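No member passed in any of the 3 comparisons under any alternative run, with 1 exception. With sample weights 1 member, Ibsp, passed between primed and non-primed cultures, and the cause was not tested. With the replicate block 0 members passed in each comparison, where Mgp was at -0.80 (SE 0.19, adjusted p = 0.140) and -0.72 (SE 0.19, adjusted p = 0.168), and in the 2 injected groups alone with the block, an alternative chosen after seeing the data, 0 passed. The block changed no call of a member. Of 361 values of single members under alternatives, 332 kept their direction and their side of the threshold, 28 changed direction and 1 passed newly. None of the 28 was past the threshold. Many of the 361 could not change direction, so the count of 332 does not measure stability. The other filters, no trend, the robust prior, the block and 2 groups alone leave the difference itself unchanged. So does leaving out a library of the group outside the comparison. With sample weights the changed values were 0.22 and 0.43 for Enpp1 in non-primed and primed against naive cultures, -0.058 for Pth1r in non-primed and 0.092 for Runx2 in primed against naive, and 0.0089 for Runx2, 0.44 for Alpl and 0.21 for Enpp1 between injected groups. With centred libraries Enpp1 was 0.0057 between injected groups. For non-primed against naive cultures, leaving out 1 library gave -0.0083 to 0.87 for Alpl, -0.60 to 0.11 for Enpp1 and -0.36 to 0.70 for Pth1r. For primed against naive it gave -0.25 to 0.074 for Runx2, -0.036 to 1.03 for Alpl, -0.60 to 0.10 for Enpp1 and -0.31 to 0.75 for Pth1r. Between injected groups it gave -0.32 to 0.0029 for Runx2, -0.31 to 0.45 for Alpl, -0.081 to 0.54 for Ibsp, -0.029 to 0.16 for Mgp, -0.16 to 0.21 for Enpp1, -0.30 to 0.30 for Phex and -0.075 to 0.27 for Pth1r. Where a group kept 2 libraries, its spread was taken from the fit over all groups. Depth is unknown, and with it the counting precision of weak genes such as Ibsp.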

Other observations

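The transcripts of the enzymes that break down and make pyrophosphate were compared as the log2 ratio of Alpl to Enpp1. This ratio is comparable between libraries but carries the lengths of both genes. Enzyme activity and pyrophosphate were not measured, and the exporter gene Ank is not part of the ratio. It was -4.54, -5.92 and -7.21 in naive 1, 2 and 3, -5.16, -4.91 and -5.26 in non-primed 1, 2 and 3, and -5.68, -4.85 and -4.89 in primed 1, 2 and 3. The naive cultures spanned the whole range of the injected ones. Naive cultures had a mean of -5.89 ± 1.34 (SD, n = 3), the non-primed -5.11 ± 0.18 and the primed -5.14 ± 0.47. By the two-sided exact permutation test the adjusted p over 6 comparisons was 0.9 for non-primed and 0.9 for primed against naive cultures and 1.0 between injected groups, where the smallest raw p that 3 against 3 allows is 0.1.

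The log2 ratio of Tnfrsf11b, the decoy receptor osteoprotegerin, to Tnfsf11, the osteoclast-inducing ligand RANKL that it binds, was 1.19, 1.20 and 3.67 in naive 1, 2 and 3. It was 2.41, 2.80 and 1.57 in non-primed 1, 2 and 3 and 2.88, 2.35 and 2.61 in primed 1, 2 and 3. Naive 3 was the highest of all libraries and the other naive cultures were the lowest. The exact permutation test gave an adjusted p of 0.96 for non-primed against naive, 0.9 for primed against naive and 0.9 for primed against non-primed cultures.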
